A study of Mus musculus with 12 samples.

Results

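Mex3a-low cells and Mex3a-negative cells of the Lgr5-low gate of the mouse small intestine were compared on 2 arrays each, 4 of the 12 arrays of the series. They were chosen by their population labels, Mex3a Low Lgr5 Low and Mex3a Neg Lgr5 Low. Each population was sampled in 2 biological replicates, MR793 and MR820, so that every mean has n = 2, and that number limits the precision of all values. The cells were untreated primary cells, 2000 per sample, and their RNA was amplified for 22 cycles before it was put on Affymetrix expression arrays. Strain, age and genotype of the mice, what the cells were sorted on, and whether animals were pooled, are unstated in the labels used here. Values of 3 more populations from the same replicates stand beside them: Mex3a High Lgr5 Low, Mex3a Low Lgr5 High and Mex3a Neg Lgr5 High.

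The epithelium of the small intestine is renewed from stem cells at the crypt base, which carry the R-spondin receptor Lgr5. Their progeny become absorptive enterocytes or secretory cells: enteroendocrine cells release hormones, tuft cells sense luminal signals and produce lipid mediators and interleukin 25, Paneth cells release antimicrobial proteins at the crypt base, and goblet cells release mucus. Mex3a encodes an RNA-binding protein whose transcript is found in a subset of crypt cells. In a bulk sample, fewer cells of a type and less of its RNA per cell cannot be told apart.

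All levels are log2 values made by the RMA method, and a difference is the Mex3a-low level minus the Mex3a-negative level on that scale, so that a difference of 1 is a doubling. Dim probe sets keep a floor of background in RMA values, which compresses differences that start from it. Among the 11 arrays of the fit the correlations over genes were 0.971 to 0.996, and among the 4 arrays compared they were 0.985 to 0.995. The MR793 array of Mex3a High Lgr5 High, which is in neither group, stood apart at 0.896 to 0.916 and was left out of the fit, and the genes' median residual SD was 0.116 without it and 0.220 with it. Both MR793 arrays were on strip 3, while in MR820 the Mex3a-low array was on strip 2 and the Mex3a-negative array on strip 3, so the MR793 difference is also the difference within a strip. Samples of the same replicate deviated together, with correlations of 0.374 to 0.566 over 10 pairs of populations, and blocked p-values are given where they change a call.

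The genes named in the labels were looked at first. Mex3a had 5.64 in the MR793 and 5.48 in the MR820 array of Mex3a-low cells, against 5.44 and 5.60 in Mex3a-negative cells. The groups overlapped, and the difference was 0.04 ± 0.12 (SE; limma adjusted p = 0.997), with -0.06 for the other Mex3a probe set. The arrays thus did not show the separation by Mex3a that the labels give. Both probe sets were dim in these arrays, below the array medians of 5.83 to 6.04. Differences are compressed there, so these values cannot decide whether the populations differed in Mex3a. Lgr5 had 7.14 and 7.39 in Mex3a-low cells, against 6.37 and 7.25 in Mex3a-negative cells (0.45 ± 0.26, adjusted p = 0.997, with 0.002 for its other probe set). In the Lgr5-high gate it stood at 9.96 to 10.21 in the Mex3a-low and Mex3a-negative arrays, above all 4 Lgr5-low arrays.

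Mex3a-low cells had higher levels of several genes of enteroendocrine, tuft and Paneth cells than Mex3a-negative cells, and no gene was called lower. Of 17097 genes, 16 rose at a limma adjusted p under 0.05, which is 0.0936% of the genes, and 0 fell (0%). At an unadjusted p under 0.05 there were 822 genes, 460 higher and 362 lower. All 16 called genes differed by over 1 log2, and 78 genes (0.456%) differed by that much with both Mex3a-low arrays above both Mex3a-negative arrays, 0 the other way. Of the 16, 12 belong to 4 of the 19 gene lists described here: 6 to the tuft cell list, 3 to the enteroendocrine transcription factors, 2 to the Paneth cell list and 1 to the enteroendocrine hormones. The lists were chosen with earlier results of these data known. With the replicate as a block, 56 genes rose (0.328%) and 1 fell (0.00585%), among them all 16. The gene lower with the block was Vamp7, a vesicle fusion protein, with 6.70 and 6.45 in Mex3a-low cells against 7.59 and 7.16 in Mex3a-negative cells (block adjusted p = 0.0429, without the block 0.291).

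**Figure D1:**
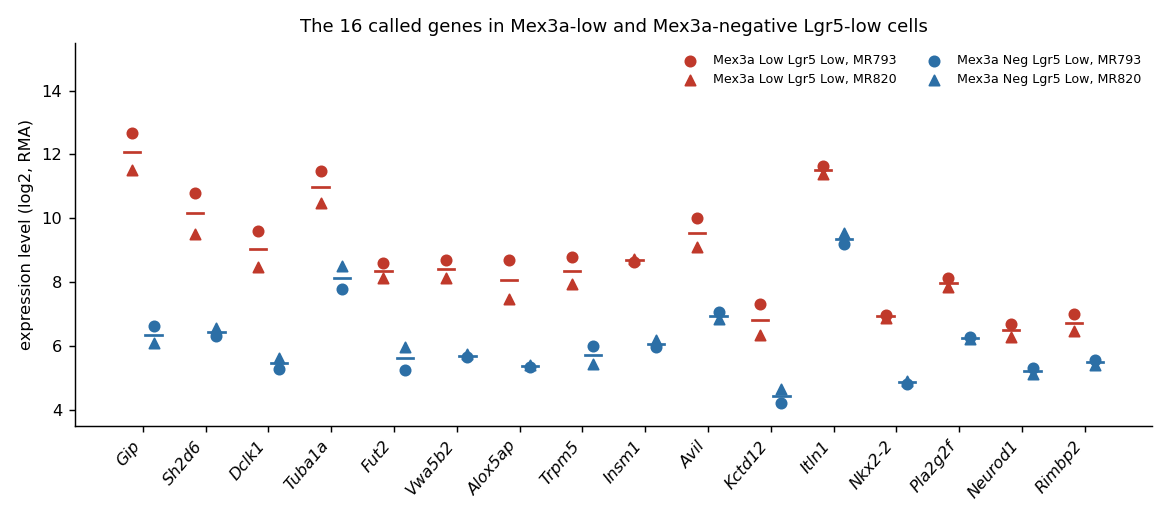
Log2 expression level (y axis) of the 16 called genes (x axis) in Mex3a-low (red) and Mex3a-negative (blue) Lgr5-low cells, with MR793 as circles, MR820 as triangles and the group mean as a bar. No red point lies at or below a blue point of the same gene, and 15 of the 16 genes are higher in the MR793 than in the MR820 array of Mex3a-low cells.

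Among the transcription factors of the enteroendocrine lineage, Nkx2-2 had the smallest p of all genes. Nkx2-2, a homeodomain factor needed for several enteroendocrine subtypes, had 6.98 and 6.86 in Mex3a-low cells, against 4.81 and 4.90 in Mex3a-negative cells. The arrays of each group lay close together, and the difference was 2.07 ± 0.10 (SE; limma adjusted p = 0.000143). Insm1, a zinc finger factor of endocrine differentiation, had 8.64 and 8.72 in Mex3a-low cells, against 5.95 and 6.18 in Mex3a-negative cells. It differed by 2.61 ± 0.20 (adjusted p = 0.00153), and was the called gene for which the MR793 array of Mex3a-low cells was not the higher of the pair. Neurod1, a basic helix-loop-helix factor that follows Neurog3 in the lineage, had 6.69 and 6.28 in Mex3a-low cells, against 5.29 and 5.11 in Mex3a-negative cells (1.28 ± 0.15, adjusted p = 0.0164). The other Neurod1 probe set, which was dimmer, differed by 0.32.

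All 17 measured enteroendocrine factors, of 20 in the list, had a positive difference, with a median of 0.40 against -0.01 over all genes, and 13 had both Mex3a-low arrays above both Mex3a-negative arrays, a pattern that 14.6% of all genes show. The 3 genes above passed the test and the other 14 did not. Isl1, a LIM homeodomain factor, had 7.61 and 6.55 in Mex3a-low cells, against 5.84 and 5.58 in Mex3a-negative cells, and 1.37 ± 0.30 missed the threshold (adjusted p = 0.407). Neurog3, the factor that starts the endocrine programme, differed by 0.61 ± 0.34 (adjusted p = 0.997).

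Of the hormones, Gip changed most of all 17097 genes. Gip, which encodes the incretin glucose-dependent insulinotropic polypeptide of K cells, had 12.67 and 11.50 in Mex3a-low cells, against 6.62 and 6.08 in Mex3a-negative cells. Both Mex3a-low arrays were far above both others, and the difference was 5.73 ± 0.43 (adjusted p = 0.00153), at 6.05 in MR793 and 5.42 in MR820. All 15 measured hormone and transmitter genes, of 18 listed, had a positive difference, with a median of 0.89, but their size depended on the replicate: the median was 1.26 in MR793 and 0.18 in MR820.

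With the replicate as a block, 4 of the 15 measured hormone and transmitter genes rose, where 0.328% of all genes did. Beside Gip, 3 of them passed the test with the block and not without it. Sst, which encodes the inhibitory hormone somatostatin of D cells, had 9.05 and 8.43 in Mex3a-low cells, against 6.37 and 6.52 in Mex3a-negative cells (difference 2.30 ± 0.34, adjusted p = 0.0687, with the block 0.0129). Tph1, the enzyme that starts serotonin synthesis in enterochromaffin cells, had 9.76 and 8.09 in Mex3a-low cells, against 6.18 and 6.29 in Mex3a-negative cells (2.69 ± 0.44, adjusted p = 0.108, with the block 0.00638). Tac1, the precursor of substance P, had 8.33 and 6.22 in Mex3a-low cells, against 4.61 and 4.60 in Mex3a-negative cells (2.67 ± 0.52, adjusted p = 0.226, with the block 0.0306). In each of the 3 genes the MR793 array of Mex3a-low cells was the higher one, and the groups did not overlap.

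Other hormone genes passed with neither fit. Gcg, which encodes proglucagon, the source of GLP-1 in L cells, had 10.69 in the MR793 but 4.82 in the MR820 array of Mex3a-low cells, against 5.04 in both arrays of Mex3a-negative cells. Its difference was 5.66 in MR793 and -0.22 in MR820, so its level in Mex3a-low cells rests on 1 array. Cck, the hormone cholecystokinin, had 8.73 and 6.19 in Mex3a-low cells, against 6.46 and 5.48 in Mex3a-negative cells, with overlapping groups. Ghrl, which encodes ghrelin, had 10.27 and 8.34 in Mex3a-low cells, against 7.67 and 7.60 in Mex3a-negative cells (1.67 ± 0.48, adjusted p = 0.719). Sct, which encodes secretin, had 8.32 and 7.66 in Mex3a-low cells, against 7.07 and 7.14 in Mex3a-negative cells (0.89 ± 0.38, adjusted p = 0.997).

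**Figure D2:**
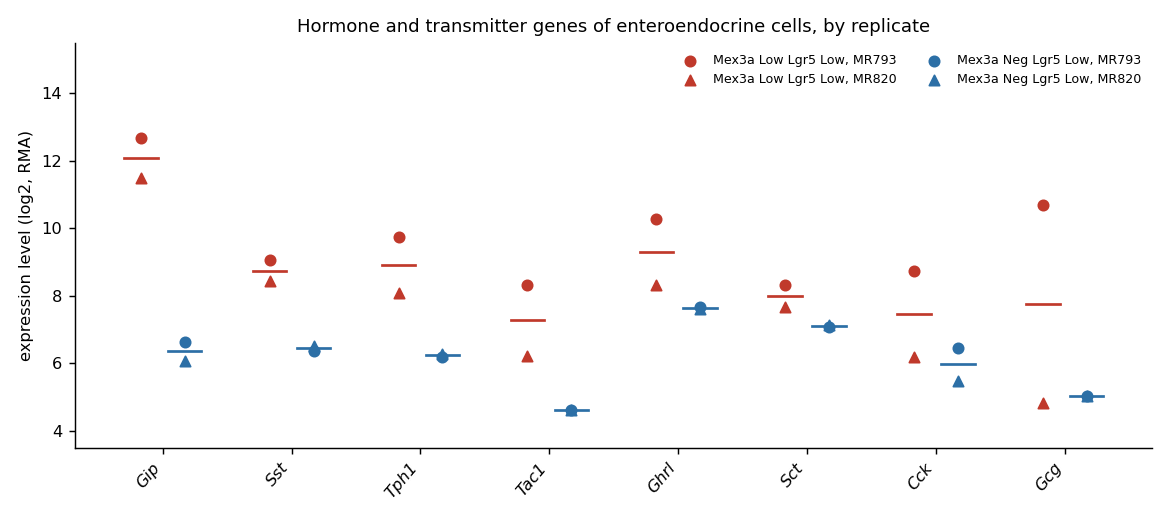
Log2 expression level (y axis) of 8 hormone and transmitter genes (x axis) in Mex3a-low (red) and Mex3a-negative (blue) Lgr5-low cells, with MR793 as circles, MR820 as triangles and the group mean as a bar. Gip, Sst and Tph1 are high in both red points, whereas Gcg is high in the MR793 point (10.69) and not in the MR820 point (4.82).

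Of the genes for proteins that pack and process hormones, none passed without the block. With the block 1 passed, where 0.328% of all genes rose. All 14 measured granin and prohormone processing genes, of 15 listed, had a positive difference (median 0.66, with 1.28 in MR793 and 0.31 in MR820), and 10 had both Mex3a-low arrays above both Mex3a-negative arrays, as 14.6% of all genes did. Cpe, the carboxypeptidase that trims hormone precursors, had 8.85 and 6.47 in Mex3a-low cells, against 4.88 and 4.46 in Mex3a-negative cells (2.99 ± 0.58, adjusted p = 0.226, with the block 0.0202). Chgb, a granin of secretory granules, had 12.17 and 11.26 in Mex3a-low cells, against 9.37 and 8.19 in Mex3a-negative cells, but its SE of 0.80 left 2.93 below the threshold (adjusted p = 0.670). Chga, the other classic granin, had 9.81 and 7.85 in Mex3a-low cells, against 7.49 and 6.49 in Mex3a-negative cells (1.84 ± 0.62, adjusted p = 0.913). In the regulated exocytosis list, 17 of 23 measured genes had a positive difference (median 0.17), and the synaptic vesicle protein Syp passed with the block only, with 8.39 and 7.61 in Mex3a-low cells against 6.90 and 6.92 in Mex3a-negative cells (1.09 ± 0.22, adjusted p = 0.276, with the block 0.0429).

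The tuft cell list held the most called genes. Of its 25 measured members, of 30 listed, 6 rose, where 0.0936% of all genes did, and all 25 had a positive difference (median 1.17, with 1.51 in MR793 and 0.82 in MR820). Of them 13 differed by over 1 log2 with no overlap of the groups, where 0.456% of all genes did. Dclk1, a kinase used as the tuft cell marker, had 9.59 and 8.48 in Mex3a-low cells, against 5.27 and 5.63 in Mex3a-negative cells (3.58 ± 0.30, adjusted p = 0.00192). The 7 other Dclk1 probe sets were positive in both replicates too, from 0.48 to 3.21. Dclk1 was not called with the mean over its probe sets (adjusted p = 0.0511). Sh2d6, an SH2 domain protein of tuft cells, had 10.80 and 9.51 in Mex3a-low cells, against 6.31 and 6.57 in Mex3a-negative cells (3.72 ± 0.33, adjusted p = 0.00327). Avil, the actin-bundling protein advillin, had 9.99 and 9.11 in Mex3a-low cells, against 7.06 and 6.83 in Mex3a-negative cells (2.60 ± 0.25, adjusted p = 0.00533). In all of these both Mex3a-low arrays lay above both Mex3a-negative arrays, and the MR793 array was the higher one.

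The signalling genes of tuft cells changed in part. Trpm5, the cation channel of taste-type signal transduction, had 8.78 and 7.93 in Mex3a-low cells, against 6.00 and 5.42 in Mex3a-negative cells (2.65 ± 0.32, adjusted p = 0.0192). Its other probe sets differed by 2.06 and 1.31, and Trpm5 was not called with the mean over its probe sets. Alox5ap, which presents arachidonic acid to 5-lipoxygenase for leukotriene synthesis, had 8.68 and 7.46 in Mex3a-low cells, against 5.33 and 5.40 in Mex3a-negative cells (2.70 ± 0.31, adjusted p = 0.0166). Kctd12, an auxiliary subunit of GABA-B receptors, had 7.31 and 6.33 in Mex3a-low cells, against 4.21 and 4.66 in Mex3a-negative cells (2.39 ± 0.28, adjusted p = 0.0182). All 3 separated the groups, and in each the MR793 array of Mex3a-low cells was the higher one.

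With the replicate as a block, 11 of the 25 measured tuft cell genes rose, where 0.328% of all genes did. Of these, 5 passed with the block only. They were Siglecf, a sialic acid binding lectin (2.89, adjusted p = 0.120, with the block 0.0106), and Pou2f3, the transcription factor on which tuft cells depend (1.67, 0.226 and 0.0156). The others were Rgs13, a regulator of G protein signalling (1.36, 0.176 and 0.0429), Il17rb, a receptor subunit for interleukin 25 (1.19, 0.0876 and 0.0192), and Plcg2, a phospholipase C (1.17, 0.0876 and 0.0138). Siglecf varied most, with 8.43 and 6.46 in Mex3a-low cells, against 4.44 and 4.67 in Mex3a-negative cells. The cytokine gene Il25 itself differed by 0.42 ± 0.10 (adjusted p = 0.443), and Gng13 and Plcb2, signal transducers of the taste pathway, by 0.11 and 0.04 (adjusted p = 0.997 each).

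Of the 14 measured Paneth cell genes, of 25 listed, 2 rose, where 0.0936% of all genes did, and 6 rose with the block, where 0.328% did. Itln1, a lectin of Paneth and goblet cells, had 11.64 and 11.39 in Mex3a-low cells, against 9.18 and 9.52 in Mex3a-negative cells (2.16 ± 0.14, adjusted p = 0.000774). Pla2g2f, a secreted phospholipase A2, had 8.11 and 7.85 in Mex3a-low cells, against 6.27 and 6.22 in Mex3a-negative cells (1.74 ± 0.18, adjusted p = 0.0067). With the probe sets used, both genes separated the groups by over 1 log2 in each replicate. The other Pla2g2f probe set differed by 0.70 in MR793 and 0.68 in MR820. Pla2g2f was not called with the mean over its probe sets.

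The 4 genes that passed with the block only were Defa21, Mmp7, Clps and Pnliprp2. Defa21, an alpha-defensin, had 10.90 and 11.20 in Mex3a-low cells, against 5.48 and 7.92 in Mex3a-negative cells (4.35 ± 0.61, adjusted p = 0.0513, with the block 0.0071). The defensins are near-identical paralogs that can share probes, so this level may belong to several of them. Mmp7, the protease that activates pro-defensins, had 9.39 and 10.02 in Mex3a-low cells, against 7.19 and 8.31 in Mex3a-negative cells (1.96 ± 0.37, adjusted p = 0.187, with the block 0.0173). Clps, colipase, had 10.25 and 9.62 in Mex3a-low cells, against 8.20 and 7.45 in Mex3a-negative cells (2.11 ± 0.43, adjusted p = 0.291, with the block 0.000384), and the lipase relative Pnliprp2 had 8.44 and 7.47 in Mex3a-low cells, against 5.59 and 5.56 in Mex3a-negative cells (2.38 ± 0.41, adjusted p = 0.126, with the block 0.00058). The lysozyme gene Lyz2, which myeloid cells also express, had 12.69 and 12.70 in Mex3a-low cells, against 9.97 and 11.71 in Mex3a-negative cells (1.85 ± 0.42, adjusted p = 0.424). Its probe set, like that of Pnliprp2, is of a kind that can also bind related transcripts. The other lysozyme gene of the list, Lyz1, differed little. It had 8.06 and 7.97 in Mex3a-low cells, against 7.82 and 7.63 in Mex3a-negative cells (0.29 ± 0.13, adjusted p = 0.997). Negative differences were found for 3 members, the alpha-defensin Defa3 (-0.28) and the Reg3 lectins Reg3g (-0.22) and Reg3a (-1.35), and none passed (adjusted p = 0.997 each). Reg3a was high in 1 array, with 6.68 and 6.78 in Mex3a-low cells against 9.45 and 6.70 in Mex3a-negative cells.

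The other 4 called genes are in none of the lists. Tuba1a, an alpha-tubulin, had 11.47 and 10.47 in Mex3a-low cells, against 7.78 and 8.49 in Mex3a-negative cells (2.84 ± 0.34, adjusted p = 0.0192), and its probe set is of a kind that can also bind related transcripts. Fut2, a fucosyltransferase that modifies mucosal glycans, had 8.59 and 8.11 in Mex3a-low cells, against 5.25 and 5.96 in Mex3a-negative cells (2.75 ± 0.27, adjusted p = 0.00533). Vwa5b2 had 8.68 and 8.12 in Mex3a-low cells, against 5.64 and 5.73 in Mex3a-negative cells (2.71 ± 0.21, adjusted p = 0.00153). Rimbp2, a binding partner of RIM proteins at presynaptic release sites, had 6.99 and 6.46 in Mex3a-low cells, against 5.57 and 5.40 in Mex3a-negative cells (1.24 ± 0.17, adjusted p = 0.0388).

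**Figure D3:**
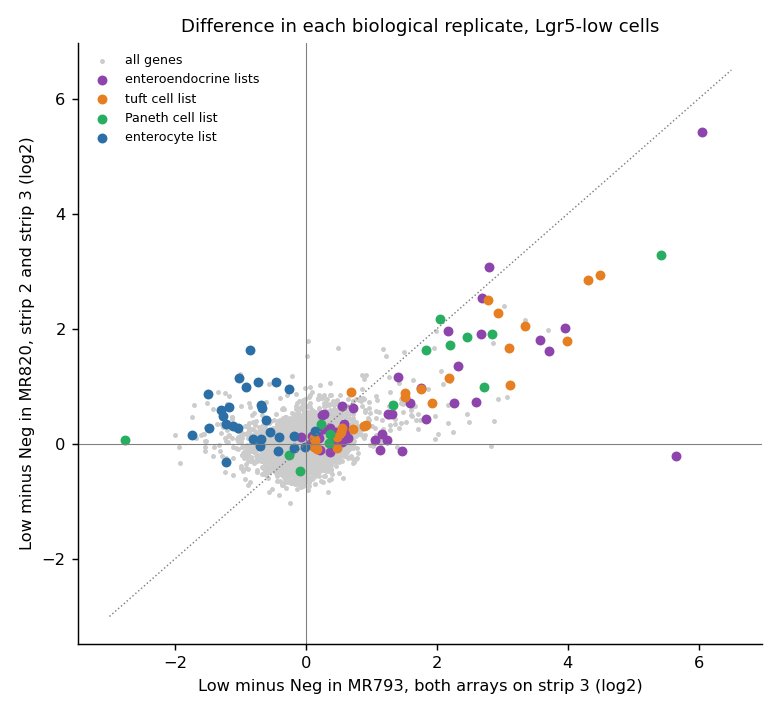
Mex3a-low minus Mex3a-negative difference in log2 of each gene in MR793 (x axis) and MR820 (y axis), with all genes in grey and members of the enteroendocrine, tuft, Paneth and enterocyte lists in colour. The dotted line marks equal differences: all 16 called genes lie below it, the enterocyte genes fall mostly left of 0 and above 0, and Gcg lies at 5.66 and -0.22.

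The differences were larger in MR793 than in MR820 for all 16 called genes, and 5 of them differed by over 1 log2 between the Mex3a-low arrays. The calls of 8 genes (Gip, Sh2d6, Dclk1, Vwa5b2, Insm1, Avil, Itln1 and Nkx2-2) held with each of 8 arrays left out in turn. Without the MR793 Mex3a-low array Tuba1a, Fut2, Trpm5, Pla2g2f, Neurod1 and Rimbp2 were not called, without the MR793 Mex3a-negative array Tuba1a, Alox5ap, Kctd12, Neurod1 and Rimbp2 were not, and without the MR820 Mex3a-negative array Rimbp2 was not. Leaving out single Lgr5-high arrays, which carry part of the residual spread, also took Tuba1a, Alox5ap, Trpm5, Kctd12, Neurod1 and Rimbp2 above the threshold. The highest adjusted p on leaving out an array was 0.104 for Tuba1a, 0.0554 for Fut2, 0.0956 for Alox5ap, 0.0963 for Trpm5, 0.11 for Kctd12, 0.0679 for Pla2g2f, 0.0574 for Neurod1 and 0.122 for Rimbp2. The number of called genes was 63 without the MR820 Mex3a-low array, 47 without the MR820 Mex3a-negative array and 10 without either Mex3a-low array of the Lgr5-high gate. Fitted on the 4 arrays alone, with no other population to share the spread, 0 genes were called and 554 had an unadjusted p under 0.05. Some of the 8 genes that held with each array left out were lost under other settings too. With all 12 arrays Nkx2-2 (adjusted p = 0.692) and Insm1 (0.508) were not called. Dclk1 was not called with the mean over probe sets, nor were Sh2d6, Dclk1 and Avil with the Lgr5-low arrays only.

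Promoters are shown for 4 called genes from the enteroendocrine, tuft and Paneth lists that hold a match to one of the motifs below. RefSeq promoters on GRCm38.p6 were held for 13 of the 16 called genes, and the 250 bases before the start were searched on both strands for 3 motifs. The first was CAGATG, an E-box that basic helix-loop-helix factors such as Neurod1 can bind. Its reverse complement, CATCTG, is the form found in the promoters below. The second was ATGCAAAT, the octamer that POU factors such as Pou2f3 can bind. The third was AGATAA, which GATA factors can bind, and no matches overlapped. Each sequence reads 5′ to 3′ in the gene's direction, with motif matches in capitals.
Nkx2-2, chr2:147186403-147186652, minus strand: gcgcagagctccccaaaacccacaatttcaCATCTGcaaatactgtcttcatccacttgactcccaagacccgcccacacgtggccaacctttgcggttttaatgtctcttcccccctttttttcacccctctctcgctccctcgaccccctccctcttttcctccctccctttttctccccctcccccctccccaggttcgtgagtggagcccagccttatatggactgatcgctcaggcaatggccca
Gip, chr11:96024295-96024544, plus strand: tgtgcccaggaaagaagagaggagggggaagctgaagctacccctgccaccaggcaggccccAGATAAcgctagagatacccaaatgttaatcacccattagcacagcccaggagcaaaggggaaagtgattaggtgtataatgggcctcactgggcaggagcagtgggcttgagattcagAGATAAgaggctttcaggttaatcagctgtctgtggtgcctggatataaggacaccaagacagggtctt
Kctd12, chr14:102982638-102982887, minus strand: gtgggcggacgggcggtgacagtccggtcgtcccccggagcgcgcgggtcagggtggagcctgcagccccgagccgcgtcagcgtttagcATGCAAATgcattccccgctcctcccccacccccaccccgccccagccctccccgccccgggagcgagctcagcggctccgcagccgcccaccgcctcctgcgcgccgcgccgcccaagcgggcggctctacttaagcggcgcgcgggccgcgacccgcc
Pla2g2f, chr4:138757599-138757848, minus strand: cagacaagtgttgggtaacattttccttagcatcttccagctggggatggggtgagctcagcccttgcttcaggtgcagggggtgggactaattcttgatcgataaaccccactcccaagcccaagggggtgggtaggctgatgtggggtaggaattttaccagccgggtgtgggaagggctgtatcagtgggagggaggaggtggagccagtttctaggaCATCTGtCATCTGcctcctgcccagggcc

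The E-box stood 220 bases before the start of Nkx2-2, and at 29 and 22 bases before that of Pla2g2f. Gip held AGATAA at 188 and 69 bases, and Kctd12, a tuft cell gene, held the octamer at 160 bases. The E-box was found in 3 of the 13 called genes, Rimbp2 being the other one, against 16.3% of 27025 genes in the table. The octamer was found in 1 of 13, against 1.81% of genes, and AGATAA in 2 of 13, Gip and Avil, against 11.4% of genes. A match describes these letters only and is not a binding site.

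Enterocyte genes gave opposite answers in the 2 replicates. Their median difference was -0.74 in MR793 and 0.31 in MR820, and -0.17 together, with 0 of 29 measured members called in either direction. The MR793 Mex3a-negative array had the highest mean level of the list: it averaged 9.09 and 8.82 in Mex3a-low cells, against 9.89 and 8.38 in Mex3a-negative cells. Enpep, a brush border aminopeptidase, had 6.63 and 5.88 in Mex3a-low cells, against 8.37 and 5.74 in Mex3a-negative cells. Alpi, intestinal alkaline phosphatase, had 10.08 and 8.94 in Mex3a-low cells, against 11.30 and 9.25 in Mex3a-negative cells. Both were higher in the MR793 than in the MR820 array of either group, and most so in Mex3a-negative cells. With the MR820 Mex3a-negative array left out, 23 genes were called lower, among them Enpep (-2.12, adjusted p = 0.0421), Slc51a (-1.66, 0.00773) and Anpep (-1.15, 0.0342), and with the MR793 one left out these 3 turned to 0.52, 0.44 and 0.34 and 0 genes were called lower.

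**Figure D4:**
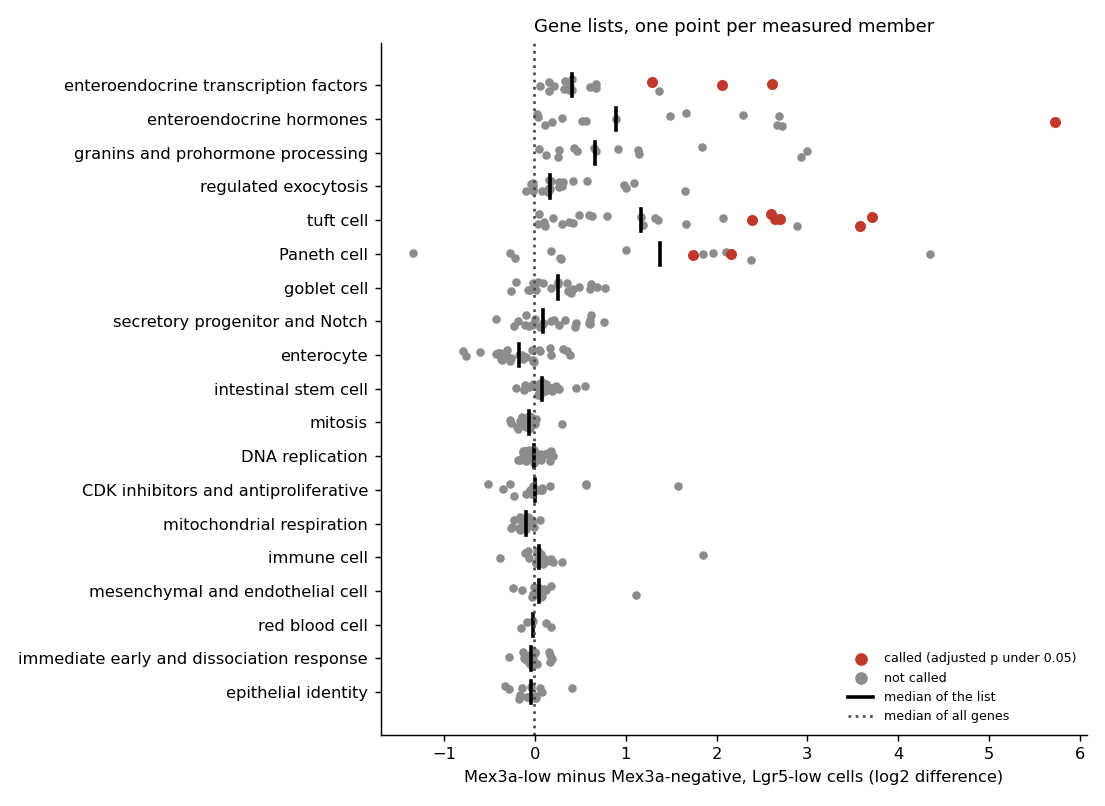
Mex3a-low minus Mex3a-negative difference in log2 (x axis) of each measured member of 19 gene lists (y axis), with called genes in red, list medians as black bars and the median of all genes as a dotted line. The medians of the Paneth (1.37), tuft (1.17) and hormone (0.89) lists lie farthest to the right, and those of the proliferation, immune and mesenchymal lists lie near 0.

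Goblet, stem and cell cycle genes differed little. Of 21 measured goblet cell genes, 16 had a positive difference, with a median of 0.01 in MR793 and 0.34 in MR820. In 7 both Mex3a-low arrays lay above both Mex3a-negative arrays, a pattern that 14.6% of all genes show. The reverse was found in 1, where 15.7% of all genes show it. No goblet cell gene passed (21 measured, median 0.25), and the largest difference, that of the secretory factor Creb3l1, was 8.70 and 8.71 in Mex3a-low cells against 7.94 and 7.93 in Mex3a-negative cells (0.77 ± 0.19, adjusted p = 0.566). Spdef, a factor of goblet and Paneth cell maturation, had 8.94 and 8.92 in Mex3a-low cells, against 8.47 and 8.16 in Mex3a-negative cells (0.62 ± 0.16, adjusted p = 0.638). Of the secretory progenitor and Notch list, 15 of 23 measured genes had a positive difference (median 0.09), and the Notch ligand gene Dll4 passed with the block only (0.76 ± 0.22, adjusted p = 0.720, with the block 0.0408). The 27 measured stem cell genes had a median of 0.08, with 0.26 in MR793 and -0.07 in MR820, and none passed.

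Mitosis genes had a small median of -0.07, and 3 of 28 measured had a positive difference. In 10 of the 28 both Mex3a-low arrays lay below both Mex3a-negative arrays, a pattern that 15.7% of all genes show. None was called, and DNA replication genes had a median of -0.01. The CDK inhibitor gene Cdkn1c had 7.41 and 6.47 in Mex3a-low cells, against 5.30 and 5.42 in Mex3a-negative cells (1.57 ± 0.25, adjusted p = 0.0876, with the block 0.0139), while the 16 genes of its list had a median of 0.00. Of 26 measured mitochondrial respiration genes, 25 had a negative difference, and 16 had both Mex3a-low arrays below both Mex3a-negative arrays, as 15.7% of all genes did. All differences lay between -0.27 and 0.05, and none passed (lowest adjusted p = 0.765).

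Markers of cells outside the epithelium were measured beside these groups. The mean level of the immune list (20 of 22 genes) was 6.06 and 5.97 in Mex3a-low cells, against 5.86 and 5.92 in Mex3a-negative cells, and 16 of 20 differences were positive with 0 called. The median difference of the list was 0.04. Its largest difference, 1.85, was that of Lyz2, which is also in the Paneth cell list and raises the mean level. The pan-leukocyte gene Ptprc had 4.33 and 4.26 in Mex3a-low cells, against 3.96 and 4.04 in Mex3a-negative cells, and Siglecf and Lyz2, given above, are also expressed by leukocytes. The mesenchymal and endothelial list (19 of 20 genes) averaged 5.46 and 5.37 in Mex3a-low cells, against 5.32 and 5.37 in Mex3a-negative cells. Its member Vim, the intermediate filament vimentin, had 7.37 and 6.18 in Mex3a-low cells, against 5.66 and 5.66 in Mex3a-negative cells (1.11 ± 0.31, adjusted p = 0.705). Red blood cell genes averaged 6.99 and 6.96 in Mex3a-low cells, against 6.96 and 6.97 in Mex3a-negative cells. Immediate early and dissociation response genes followed the replicate, with 9.64 in MR793 and 8.54 in MR820 in Mex3a-low cells, against 9.63 and 8.58 in Mex3a-negative cells. The part of these markers in the called genes was not tested.

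The same Mex3a step was compared between the Lgr5 gates in the same fit, and 2 of 17097 genes differed (0.0117%), both with the larger change in the Lgr5-low gate, and 0 the other way (573 genes at an unadjusted p under 0.05, 273 of them lower). Gip had differences of opposite sign, 5.73 in the Lgr5-low gate and -1.21 in the Lgr5-high gate. In the Lgr5-high gate it had 6.44 and 6.48 in Mex3a-low cells and 8.24 and 7.10 in Mex3a-negative cells. The step within that gate was not tested on its own. The difference of 6.94 ± 0.61 between the gates had a limma adjusted p of 0.0100. Nkx2-2 changed by 2.07 in the Lgr5-low gate, against 0.38 in the Lgr5-high gate, where it had 5.14 and 5.05 in Mex3a-low cells and 4.69 and 4.74 in Mex3a-negative cells (1.68 ± 0.15, adjusted p = 0.0100). With the replicate as a block 7 genes differed (0.0409%), adding the tuft cell genes Sh2d6 (2.88, adjusted p = 0.0373, without the block 0.387), Dclk1 (3.08, 0.0274 and 0.177), Avil (2.11, 0.0373 and 0.427) and Trpm5 (2.02, 0.00717 and 0.999), and Vwa5b2 (2.34, 0.0144 and 0.156). The count depended on single arrays. Leaving out either Mex3a-low array or the MR793 Mex3a-negative array of the Lgr5-high gate left 0 genes (522 to 546 at an unadjusted p under 0.05), and leaving out the MR820 Mex3a-negative array there left 1. In the Lgr5-low gate the number was 27 without the MR820 and 4 without the MR793 Mex3a-low array, and 5 without the MR820 and 17 without the MR793 Mex3a-negative array, with both genes among them each time.

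Of the 14 measured Paneth cell genes, 11 had a positive difference in the Lgr5-low gate and 12 in the Lgr5-high gate, and 11 had one in both, where 26.9% of all genes did. In Lgr5-high cells Itln1 had 12.20 and 12.07 at low Mex3a, against 11.10 and 11.17 at negative Mex3a, a difference of 1.00 beside 2.16 in the Lgr5-low gate (1.16 between the gates, adjusted p = 0.429). Pla2g2f differed by 1.12 and Mmp7 by 1.65 in the Lgr5-high gate, beside 1.74 and 1.96 in the Lgr5-low gate, and neither pair was called different (adjusted p = 0.999 each). Enterocyte genes differed by a median of -0.79 in the Lgr5-high gate, beside -0.17 in the Lgr5-low gate. The gates share no arrays in these differences.

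**Figure D5:**
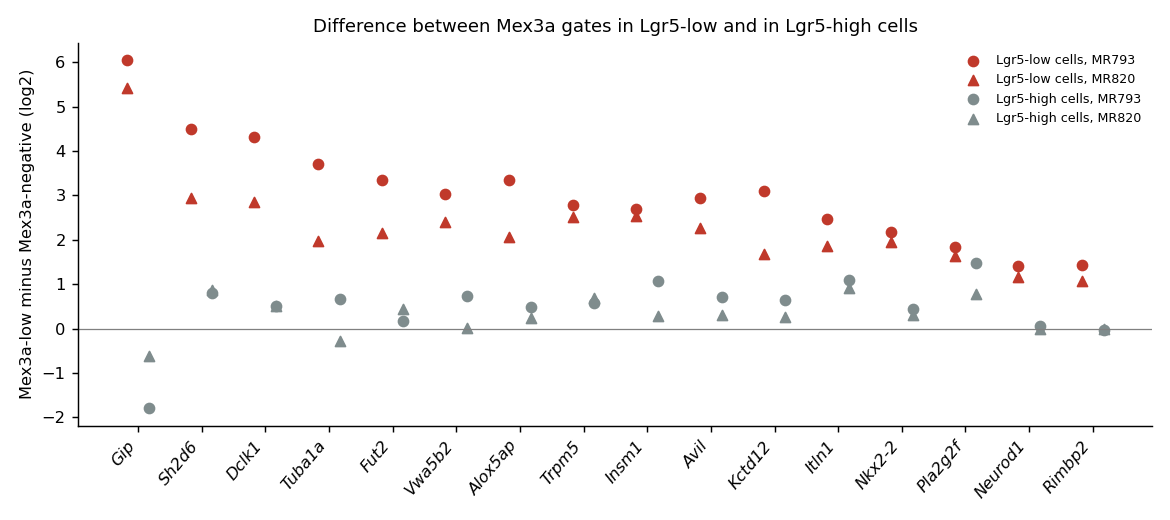
Mex3a-low minus Mex3a-negative difference in log2 (y axis) of the 16 called genes (x axis) in Lgr5-low cells (red) and Lgr5-high cells (grey), with MR793 as circles and MR820 as triangles. Red points lie above grey points for every gene, Gip is below 0 in both grey points, and the highest grey point is that of Pla2g2f in MR793.

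Mex3a-high cells of the Lgr5-low gate are given beside them, as values only, since they were compared with the same cells. For 15 of the 16 genes the 6 arrays of the gate fell in the order Mex3a-high over Mex3a-low over Mex3a-negative with no overlap. The 16 genes were picked by the second step of this order, so that step largely follows from the choice. The share of all genes with the full order was not counted, so a graded pattern was not tested. Dclk1 had 11.64 and 11.81 in Mex3a-high cells, beside 9.59 and 8.48 in Mex3a-low and 5.27 and 5.63 in Mex3a-negative cells. Gip was the exception, with 13.05 and 12.52 in Mex3a-high cells beside 12.67 and 11.50 in Mex3a-low cells. Insm1 had 10.26 and 10.45 in Mex3a-high cells, and Itln1 12.45 and 12.15.

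Over the 11 arrays, the genes whose levels were most like those of Dclk1 were Sh2d6 and Vwa5b2 (Pearson r = 0.996 each), Avil (0.995), Alox5ap (0.991) and Tuba1a (0.991), all called here. For Itln1 they were Defa21 (0.969), Pnliprp2 (0.965), Clps (0.937), the alpha-defensin Defa39 (0.921) and Mmp7 (0.917), and for Chgb they were Creb3l4 (0.930), Hepacam2 (0.927), Atp2a3 (0.924), Piwil4 (0.923) and Ttc39a (0.920). The populations and replicates are shared by all these points, so the values describe likeness only. Of these genes, Hepacam2 differed by 1.38 between Mex3a-low and Mex3a-negative cells and passed with the block only (limma adjusted p = 0.686, with the block 0.0429).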

How the data were processed

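RNA from sorted mouse small intestinal cells was measured on 12 Affymetrix arrays, 2 per population. The authors deposited log2 values for each probe set. Per the submitters' processing notes these come from RMA, whose version and settings are unstated there. All 12 value columns were joined to samples by name (0 left over) and no intensities were reprocessed. Of 45141 probe sets, 28898 were paired with a single gene, 551 with several and 15692 with none in the probe table and so were not analysed here. Where several single-gene probe sets measured a gene, the one brightest on average over the 12 arrays was kept, giving 17097 genes.

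Genes were fitted with limma 3.58.1 (R 4.3.3) as 6 population means over 11 arrays, using eBayes with trend (5 residual degrees of freedom, 4.04 prior) and Benjamini-Hochberg adjustment over all genes, called at an adjusted p under 0.05. SE is limma's moderated standard error. The difference between Lgr5 gates is a contrast of the same fit. Labels call MR793 and MR820 biological replicates but do not say which animals they hold, so p-values measure the spread between these samples. The numbers pair the samples, because all 10 pairs of populations had correlated deviations over 0.1. The main fit and the SEs given leave this pairing out. With the replicate block the SE of Gip was 0.24 in place of 0.43, while that of Mex3a was 0.12 in both fits. Tested on simulated data for this comparison, the fit recovered 96% of genes raised and 98% of genes lowered by 2 log2, and 80% and 84% of those changed by 1. The simulated noise was independent between arrays, without replicate or strip effects, other population differences or a background floor. These shares therefore do not give the recovery in the real data.

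The groups, members and gene lists were chosen with earlier results of these data known. The lists held 20 enteroendocrine transcription factors, 18 hormones, 15 granin and processing genes, 27 exocytosis, 30 tuft, 25 Paneth, 25 goblet, 24 secretory progenitor and Notch, 35 enterocyte, 32 stem, 30 mitosis, 30 DNA replication, 16 CDK inhibitor, 27 respiration, 22 immune, 20 mesenchymal and endothelial, 10 red blood cell, 20 immediate early and 18 epithelial identity genes. Named were Mex3a and Lgr5, the 20 called genes with the largest positive and 15 with the largest negative change of the same sign in both replicates, up to 8 members of each list with the smallest p, all members behind counts of at most 5, up to 8 genes each way for the difference between gates, and the 5 genes most like Dclk1, Chgb and Itln1. Genes named outside this rule were chosen after their values were seen: Neurog3, Il25, Gng13, Plcb2, Gfra3 and Reep5.

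The alternatives were the replicate, the strip and both as blocks, all 12 arrays, quantile normalization again, median centring, the mean over probe sets, Lgr5-low arrays only, the 4 arrays only, genes above the median, no trend, a 1 log2 threshold and each of 8 arrays left out. The other probe sets of called genes were looked at after the data were seen.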

Additional observations from a re-analysis of the deposited data

Results flagged for a closer look

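The change of Gip and of Nkx2-2 differed between the Lgr5 gates in the test of that difference: Gip changed by 6.94 ± 0.61 more in Lgr5-low than in Lgr5-high cells (limma adjusted p = 0.0100), and Nkx2-2 by 1.68 ± 0.15 more (adjusted p = 0.0100). Among the genes named by the rule, a further 8 had a positive difference between Mex3a-low and Mex3a-negative cells in both replicates of the Lgr5-low gate and a negative one in both replicates of the Lgr5-high gate, a pattern found in 878 of 17097 genes (5.14%). Their mean differences in the Lgr5-high gate were small, from -0.27 for Syp to -0.03 for Rimbp2. The rule favours genes with a small p in the Lgr5-low gate, so the share of all genes is not a like background. For these 8 the test of the difference between the gates was not passed (adjusted p = 0.594 for Rimbp2, 0.794 for Plcg2 and 0.999 for the others). The difference was 1.27 for Rimbp2, 0.73 for the endocrine factor St18, 3.04 for Cpe, 0.54 for Bex2, 1.36 for Syp, 0.53 and 0.39 for the synaptotagmins Syt13 and Syt7, and 1.29 for Plcg2. No group of 4 or more arrays was available for a search for single outlying arrays.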

How the results depend on the processing

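The 16 calls became 57 with the replicate block (56 higher, 1 lower), 50 with the strip as a block, 91 with both blocks, 8 with all 12 arrays, 6 with the Lgr5-low arrays only and 0 with the 4 arrays only. Of the 16 genes, 16, 15, 16, 8, 6 and 0 were among these. Leaving out 1 array gave 10 to 63 calls, 63 without the MR820 Mex3a-low array and 47 (24 higher, 23 lower) without the MR820 Mex3a-negative array. The counts stayed within 1.5 times of 16 under quantile normalization again (17), median centring (18), the mean over probe sets (12), the filter on genes above the median (16), no trend (15) and the 1 log2 threshold (16). For the difference between the gates the 2 calls became 7 with the replicate block, 7 with both blocks, 2 with the strip as a block and 0 with all 12 arrays (120 at an unadjusted p under 0.05), and 0 to 27 with 1 array left out. The strip block moved the 2 calls to Gip and Snap25. The cause of these shifts was not tested, beyond the fewer arrays that the smaller fits hold.

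The sign changed for some genes that were not called. Mex3a was -0.0118 as a mean over probe sets, and -0.0384 to 0.12 with 1 array left out. Gcg was -0.22 to 5.65. Among enterocyte genes the range on leaving out 1 array was -0.90 to 0.16 for Mttp, -0.91 to 0.15 for Slc15a1, -0.72 to 0.11 for Cbr1, -2.12 to 0.52 for Enpep, -1.66 to 0.44 for Slc51a, -1.15 to 0.34 for Anpep and -1.79 to 0.26 for Alpi, each with the MR820 and then the MR793 Mex3a-negative array left out.

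With n = 2 arrays per population, a list median from 19 lists moved by more than its spread in 38 recomputations and by less in 323. Differences of dim genes are compressed, no detection calls were used, and the RNA was amplified before labelling.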

Other observations

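Of the 41 genes called with the replicate block only, 40 were higher in Mex3a-low cells, and 25 of the 41 belong to none of the lists. Their adjusted p without the block was 0.0513 to 0.997, and over all alternatives it ranged from 4.53e-05 to 1. Gfra3, a receptor subunit for the neurotrophic factor artemin, had 6.73 and 6.54 in Mex3a-low cells, against 5.44 and 5.63 in Mex3a-negative cells (1.10 ± 0.15, adjusted p = 0.0513, with the block 0.0138). Reep5, a protein that shapes the endoplasmic reticulum, had 9.77 and 8.48 in Mex3a-low cells, against 6.91 and 6.73 in Mex3a-negative cells (2.30 ± 0.38, adjusted p = 0.107, with the block 0.00638). Atp2a3, a calcium pump of the endoplasmic reticulum, had 11.54 and 11.18 in Mex3a-low cells, against 10.27 and 10.01 in Mex3a-negative cells (1.22 ± 0.19, adjusted p = 0.0920, with the block 0.00964). Gfra3 and Reep5 were chosen after their values were seen.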
